A study of Homo sapiens with 3 samples.

Results

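Death receptors, their adaptors and the proteins that hold them in check were examined in MCF10A cells, an immortalised, non-tumorigenic human breast epithelial line. The 10 genes were the receptors FAS, TNFRSF10A, TNFRSF10B and TNFRSF1A, the adaptors FADD and TRADD, and the inhibitors CFLAR, XIAP, BIRC2 and BIRC3. Array features were taken where the platform annotation gave exactly 1 symbol and that symbol was 1 of the 10. This gave 32 of 45220 features, of which 26 had a value on at least 2 of 3 arrays and were kept. The kept features stood for 8 of the 10 genes, with 22 features of receptors and adaptors and 4 of inhibitors. TNFRSF10A had 1 feature, with a value on array 3 alone, and no feature carried the symbol BIRC3 alone in the annotation used here.

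The cells had been stably transfected either with an shRNA against obscurin, a giant cytoskeletal signalling protein, or with a scrambled control shRNA, and kept in 1.5 ug/mL puromycin. The labels name 1 hairpin on each side, so its own effects cannot be told apart from those of losing obscurin. Both cultures had received 150 uM etoposide, a topoisomerase II poison, for 48 hours, and no untreated sample was analysed here. RNA of the obscurin shRNA cells (Cy5, channel 1) and of the control shRNA cells (Cy3, channel 2) was hybridised together on each of 3 arrays, which the labels call independent replicates. The dyes were not exchanged between arrays, so a dye effect and the shRNA cannot be told apart. Values below are log2 ratios minus the array's median over all features with a value, called relative log2 ratios. They are likely obscurin shRNA over control shRNA; the direction in which the deposited ratio was formed is not stated, and if it ran the other way every sign below would turn. In bulk RNA, a smaller share of cells that express a gene and less of its RNA per cell cannot be told apart.

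Death receptors are membrane proteins of the tumour necrosis factor receptor family that carry a death domain on the inside of the cell. When a ligand clusters FAS or a TRAIL receptor, FADD binds the death domain and recruits caspase-8, which cleaves and activates the executioner caspases. TNFRSF1A, the TNF receptor, recruits TRADD instead, which can lead to survival signalling through BIRC2 and BIRC3 or to a later complex that contains FADD. CFLAR, also known as c-FLIP, takes the place of caspase-8 on FADD, and XIAP binds and blocks caspases further on. FAS and TNFRSF10B are known targets of p53, the transcription factor that DNA breaks engage.

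The DNA just upstream of 3 members is shown for orientation, 2 receptors with the most features and the inhibitor with the most; a log ratio does not measure promoter activity. Each sequence is the 250 bases before the most upstream RefSeq start listed for the gene (GRCh38.p14), 5′ to 3′ along the gene, with GC boxes (GGGCGG on either strand, the core of Sp1 sites) in capitals. FAS lies on the plus strand at chr10:88990548-88990797, TNFRSF1A on the minus strand at chr12:6342077-6342326, and CFLAR on the plus strand at chr2:201118466-201118715.
FAS: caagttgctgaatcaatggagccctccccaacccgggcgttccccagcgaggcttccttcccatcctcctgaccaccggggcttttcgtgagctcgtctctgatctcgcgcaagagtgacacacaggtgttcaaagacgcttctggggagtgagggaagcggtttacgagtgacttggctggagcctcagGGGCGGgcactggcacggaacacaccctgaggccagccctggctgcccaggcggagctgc
TNFRSF1A: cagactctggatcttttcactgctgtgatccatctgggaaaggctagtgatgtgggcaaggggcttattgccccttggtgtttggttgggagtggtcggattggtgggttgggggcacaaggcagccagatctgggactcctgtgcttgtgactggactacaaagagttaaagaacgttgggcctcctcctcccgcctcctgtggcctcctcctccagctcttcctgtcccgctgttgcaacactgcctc
CFLAR: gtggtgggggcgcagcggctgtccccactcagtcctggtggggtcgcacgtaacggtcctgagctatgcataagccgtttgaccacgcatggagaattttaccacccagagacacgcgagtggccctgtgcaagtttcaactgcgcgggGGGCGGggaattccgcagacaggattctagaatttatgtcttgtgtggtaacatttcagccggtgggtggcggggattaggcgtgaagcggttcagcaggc
The FAS and CFLAR windows hold 1 GC box each and the TNFRSF1A window holds 0; 42.5% of 34943 such windows hold at least 1. G and C make up 62.8% of the FAS window, 56.8% of that of TNFRSF1A and 58.8% of that of CFLAR, beside a median of 58% over all windows.

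No feature of any member passed the test for a difference between obscurin shRNA and control shRNA cells. With limma on all 39399 features with at least 2 values and Benjamini-Hochberg adjustment at 0.05, 0 features were called lower (0%) and 0 higher (0%). The smallest adjusted p over all features was 0.059, so the members share this result with the whole array. Of the 26 kept features, 19 had a mean below the array medians and 7 above, which is 73.1% below beside 58.5% of all features tested. The median of their means was -0.68, beside -0.38 over all features tested. At an unadjusted limma p under 0.05 there were 7 member features below, or 26.9%, where 18.3% of all features lay below and 1.4% above at that level; 0 member features did so above. Of the 15 kept features with values on all 3 arrays, 6 (40%) were below the median on every array, beside 29.1% of all such features, and 1 was above on every array, beside 23.2%. Of the alternatives tried, 2 brought member features past the threshold. Among the 23308 features with values on all 3 arrays, limma called 11.2% lower and 0.0472% higher, and 3 member features were among the lower ones, FAS 15171 (adjusted p = 0.0336) and TNFRSF1A 25056 and 30189 (adjusted p = 0.0336 and 0.0447). With 0 at each array's most often repeated value, limma called 7.81% lower and 0.00508% higher, and 4 member features were lower, the same 3 and TNFRSF1A 5814 (adjusted p = 0.0485).

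**Figure D1:**
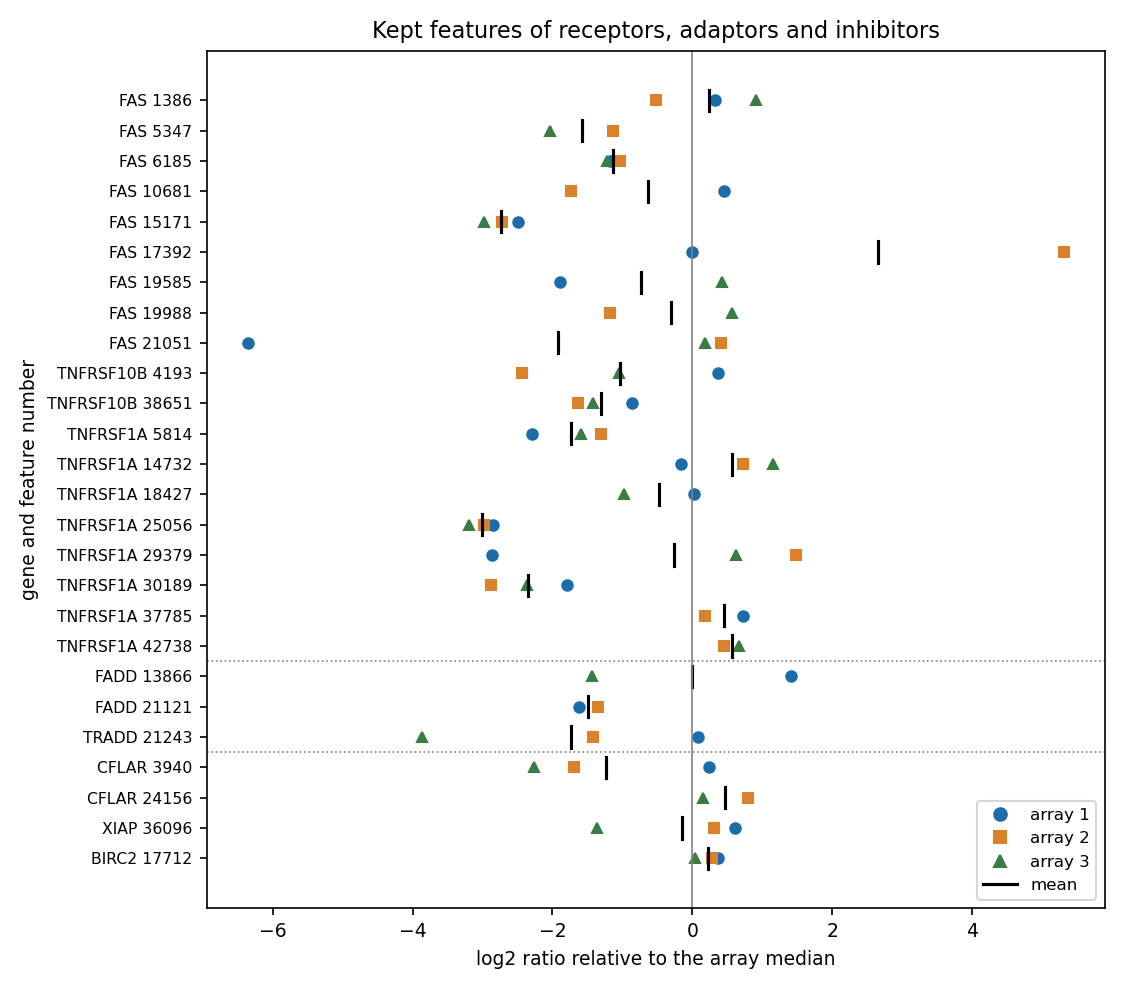
Relative log2 ratio (x axis) of each kept feature (y axis, gene and feature number), with 1 symbol per array and a black bar for the mean; dotted lines part receptors, adaptors and inhibitors. FAS 15171 and TNFRSF1A 25056 lie between -3.19 and -2.50 on all 3 arrays, while other features of the same genes straddle 0.

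FAS, the receptor of the FAS ligand, was measured by 11 features, 10 of them annotated to NM_000043 and 1 to AK026195; 9 were kept. Feature 15171 had relative log2 ratios of -2.50, -2.73 and -2.97 on arrays 1, 2 and 3. All 3 arrays were low there and close together, with a mean of -2.73 ± 0.29 (SE, n = 3 arrays), yet the limma adjusted p was 0.059. Feature 6185 was also low on every array, at -1.18, -1.03 and -1.22, with a mean of -1.14 ± 0.27 and a limma adjusted p of 0.144. Feature 21051, the one of AK026195, was at -6.36 on array 1 but at 0.41 and 0.18 on arrays 2 and 3. Its mean of -1.92 ± 1.71 therefore rests on array 1, and without it the mean is 0.30. Feature 17392 went the other way, at 0.00 on array 1 and 5.31 on array 2. The remaining 5 kept FAS features had means from -1.58 to 0.23, and those of 4 lay below 0. Among them, feature 5347 was low on both arrays that measured it, at -1.13 and -2.03 on arrays 2 and 3 (mean -1.58 ± 0.48, limma adjusted p = 0.287, n = 2 arrays). Features 1386, 10681, 19585 and 19988 had values on both sides of the array median. The features left out had 1 value each, -0.997 for feature 7605 on array 3 and 4.21 for feature 38595 on array 2.

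TNFRSF1A, the death-domain receptor for TNF, was measured by 11 features, all annotated to NM_001065; 8 were kept. Feature 25056 had the lowest mean of any member feature, with -2.85, -2.98 and -3.19 on the 3 arrays and a mean of -3.01 ± 0.28 (limma adjusted p = 0.059, n = 3 arrays). Feature 30189 had -1.79, -2.88 and -2.37, with a mean of -2.35 ± 0.36 (limma adjusted p = 0.0782). Feature 5814 had -2.29, -1.30 and -1.60, with a mean of -1.73 ± 0.35 (limma adjusted p = 0.113). These 3 features were below the array median throughout, but others for the same transcript were not. Feature 14732 had -0.17, 0.72 and 1.15, and feature 42738 had 0.45 and 0.67 on arrays 2 and 3. Feature 29379 was at -2.87 on array 1 and at 1.48 and 0.62 on arrays 2 and 3, so array 1 decided its sign. Feature 18427 was at 0.03 and -0.98 on arrays 1 and 3, and feature 37785 at 0.73 and 0.18 on arrays 1 and 2. The 3 features left out had single values of 0.86 and -2.26 on array 3 (features 6075 and 7940) and -3.91 on array 1 (feature 37998), again of both signs.

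The TRAIL receptors had fewer features. TNFRSF10B, also known as DR5, had 2. Feature 38651 was at -0.86, -1.64 and -1.43, below the median on all 3 arrays, with a mean of -1.31 ± 0.32 (limma adjusted p = 0.152, n = 3 arrays). Feature 4193 was at 0.37, -2.44 and -1.05, above the median on array 1 and below it on the others, with a mean of -1.04 ± 0.67 (limma adjusted p = 0.436). The only value of TNFRSF10A, also known as DR4, was 1.57 on array 3, with no replicate.

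The means of the adaptor features lay at or below the array medians, with wide spread for FADD feature 13866 and TRADD. FADD, which links FAS and the TRAIL receptors to caspase-8, had 2 features. Feature 21121 was at -1.63 and -1.35 on arrays 1 and 2, with a mean of -1.49 ± 0.40 (limma adjusted p = 0.246, n = 2 arrays). Feature 13866 was at 1.42 on array 1 and -1.44 on array 3, opposite signs that left a mean of -0.01 ± 0.99. TRADD, the adaptor of TNFRSF1A, had 1 feature at 0.08, -1.42 and -3.86. These values spanned more than the distance of their mean from 0, -1.74 ± 0.91 (limma adjusted p = 0.388, n = 3 arrays).

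The inhibitors were closer to the array medians. BIRC2, also known as cIAP1, a ubiquitin ligase that keeps TNF receptor signalling on the survival side, had 1 feature at 0.36, 0.28 and 0.03, the only member feature above the median on all 3 arrays (mean 0.23 ± 0.28, limma adjusted p = 0.628, n = 3 arrays). XIAP, the caspase-binding inhibitor, had 1 feature at 0.62, 0.30 and -1.37, with array 3 apart from the others (mean -0.15 ± 0.54, limma adjusted p = 0.862). CFLAR had 2 features, annotated to different transcripts (NM_003879 and NM_001127184), whose means had opposite signs. Feature 3940 was at 0.24, -1.70 and -2.26, with a mean of -1.24 ± 0.64 (limma adjusted p = 0.383, n = 3 arrays), and feature 24156 at 0.79 and 0.15 on arrays 2 and 3, with a mean of 0.47 ± 0.44 (limma adjusted p = 0.563).

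Receptors and adaptors were set against the inhibitors on each array. The mean over receptor and adaptor features was -1.10, -0.73 and -0.98 on arrays 1, 2 and 3, and that over inhibitor features was 0.41, -0.08 and -0.86. Receptors and adaptors were thus lower on all 3 arrays, by -1.51, -0.65 and -0.12, a mean difference of -0.76 ± 0.70 (SD, n = 3 arrays). The difference was near its own spread, it shrank to -0.38 without array 1, and it rested on 3 or 4 inhibitor features per array. It does not depend on where each array's 0 is put. No p is given, since the genes were chosen with results of these arrays known. With each gene counted once, the difference was -1.04, -1.20 and -0.79 (mean -1.01 ± 0.21 SD). That version rested on 3 inhibitor genes, and it too changed with the place of the annotation, as given below. By limma at an unadjusted p under 0.05, 7 of 22 receptor and adaptor features (31.8%) and 0 of 4 inhibitor features lay below, beside 18.3% of all features. Of those 7, 2 were features of FAS and 3 of TNFRSF1A, so the count rests largely on repeated features of the same genes. With only 4 inhibitor features, a count of 0 does not set them apart from all features.

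The deposited values have a narrow peak at the value most often repeated on each array, which lay 0.58, 0.69 and 0.61 above the median of arrays 1, 2 and 3. Within 0.5 of it lay 39.7%, 36.2% and 38.9% of all values. Of the 11 values of inhibitor features, 7 (63.6%) lay there, as did 15 of the 62 values of receptor and adaptor features (24.2%). XIAP, BIRC2 and CFLAR feature 24156 each had 2 values in that peak, and CFLAR feature 3940 had 1. Among receptor features, FAS 1386, FAS 21051 and TNFRSF1A 42738 had 2 each as well. FAS feature 15171 and TNFRSF1A feature 25056 had 0, which follows from their values far below the median on every array.

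**Figure D2:**
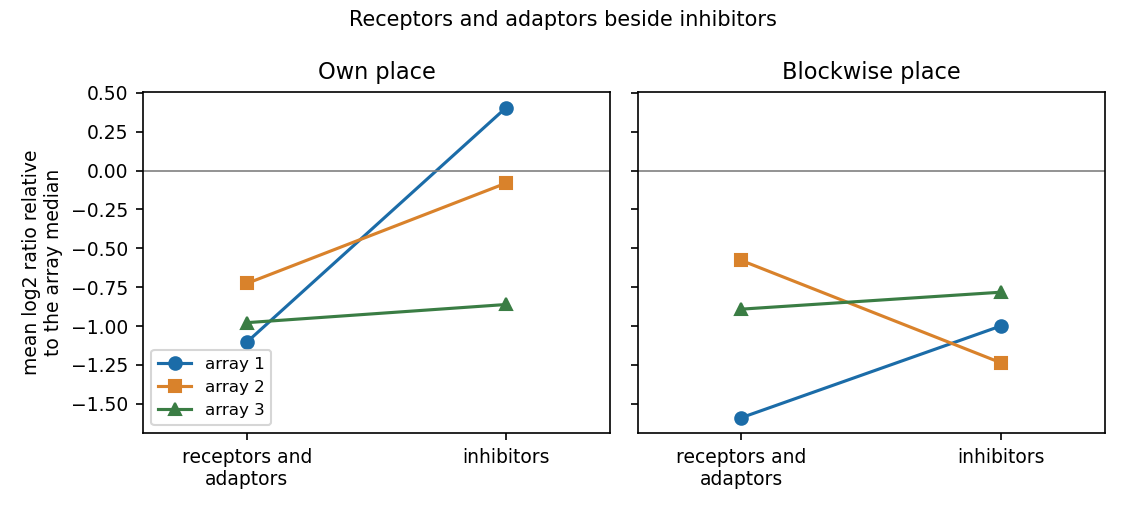
Mean relative log2 ratio (y axis) of receptor and adaptor features and of inhibitor features, with 1 line per array, with the annotation at its own place (left) and chosen block by block (right). On the left receptors and adaptors are lower on 3 of 3 arrays; on the right the order is turned on array 2, where they are 0.66 higher.

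FAS and TNFRSF1A are measured often enough on each array to see how far features of the same gene agree. Over the 6, 8 and 7 FAS features of NM_000043 with a value on arrays 1, 2 and 3, the SD was 1.24, 2.93 and 1.46; with the feature of AK026195 it was 2.39, 2.75 and 1.39. Over the 8, 7 and 9 features of TNFRSF1A, all of NM_001065, it was 1.65, 1.79 and 1.65. The SD over all values of an array was 1.93, 2.02 and 1.98, and the median SD within a transcript, over 234 or 235 transcripts with repeated features, was 1.67, 1.72 and 1.68. The SD within TNFRSF1A was thus near that of other repeated transcripts, and that within FAS was above it on array 2. The median over all FAS features was below the array median on every array, at -1.18, -1.03 and -0.41; over those of NM_000043 alone it was -0.59, -1.08 and -0.997. That of TNFRSF1A was -2.04, 0.18 and -0.98, above it on array 2. The mean of the array medians was -0.87 ± 0.41 (SD, n = 3 arrays) for FAS and -0.95 ± 1.11 for TNFRSF1A.

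Whether a value stands beside the right annotation was then checked, in a way chosen after the data had been seen. The 45220 features form a grid of 170 columns. In 35 blocks of it, the ranks of features from 222 often repeated transcripts, none of them of a gene described here, were compared with those of the same transcripts elsewhere, at the own place and 1 grid row earlier. On array 1 the upper part of the grid agreed better 1 row earlier and the lower part at the own place. On arrays 2 and 3 it was the reverse. On each array 20 of 35 blocks agreed better 1 row earlier, and all 105 choices were the same whether the search began at the own place or 1 row earlier. For 13 repeated transcripts of genes described here, left out of the choice, the intraclass correlation of ranks was 0.201, 0.179 and 0.023 on arrays 1, 2 and 3 at the own place and 0.198, 0.284 and 0.220 with the place chosen by block, higher on arrays 2 and 3 and alike on array 1. The rank correlation over features between arrays 1 and 2 was 0.342 at the own place and 0.340 by block, between arrays 1 and 3 it was 0.267 and 0.278, and between arrays 2 and 3 it was 0.532 and 0.477.

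**Figure D3:**
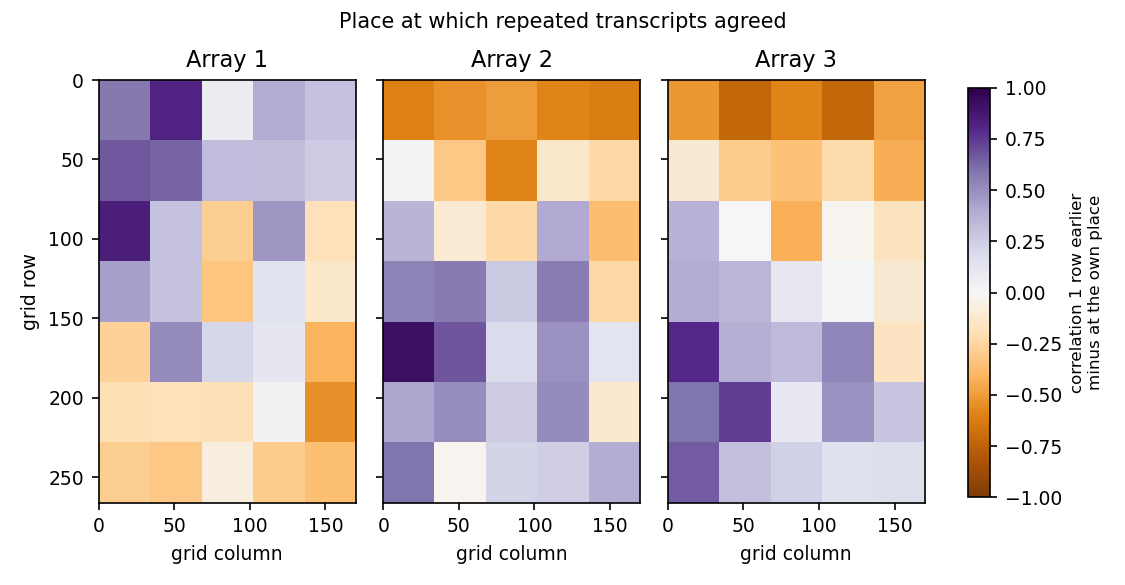
For each block of the feature grid (rows down, columns across) on arrays 1, 2 and 3, the correlation of repeated transcripts 1 row earlier minus that at the own place; purple blocks agree better 1 row earlier, orange blocks at the own place. The top of array 1 is purple and its bottom orange, and arrays 2 and 3 run the other way; 20 of 35 blocks on each array were taken 1 row earlier.

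With values taken at the better place of each block, the medians over FAS features were again below the array medians, and receptors and adaptors no longer lay below the inhibitors on every array. The medians over FAS features were -1.40, -0.94 and -0.997 on arrays 1, 2 and 3, a mean of -1.11 ± 0.25 (SD, n = 3 arrays). Those over TNFRSF1A features were -2.81, -0.89 and -0.44, now below the array median on all 3. CFLAR feature 3940 moved to -2.59, -1.70 and -2.26, low on every array, with a mean of -2.18 ± 0.34 (limma adjusted p = 0.081), and TNFRSF10B feature 4193 to -4.26, -2.44 and -1.05 (mean -2.58 ± 0.76, limma adjusted p = 0.210). TNFRSF1A feature 25056, the lowest member feature at its own place, became -3.74, 0.76 and -0.04, no longer of a common sign (limma adjusted p = 0.592). FAS feature 15171 had -1.08 and -2.73 on arrays 1 and 2 and no value on array 3 (limma adjusted p = 0.333). XIAP moved to 0.62 and 0.41 on arrays 1 and 2. BIRC2 had 0.76 and -0.35 on arrays 1 and 3, no longer of a common sign. TNFRSF10A gained values, at -0.56, 1.43 and 1.57. FADD feature 21121 lost its values on arrays 1 and 2, and its only value was 2.99 on array 3, so it was not tested. FADD feature 13866 and TRADD kept their values. Receptors and adaptors minus inhibitors became -0.59, 0.66 and -0.11, a mean of -0.01 ± 0.63 (SD, n = 3 arrays). With each gene counted once it was -0.44, 0.33 and -0.51, a mean of -0.21 ± 0.47 (SD, n = 3 arrays). By limma 0 of 29 member features were called there, and 0 of all 39454 features tested. At an unadjusted limma p under 0.05, 8 lay below, 7 of 25 receptor and adaptor features and 1 of 4 inhibitor features. Of all features 17.7% lay below at that level and 1.14% above, and 0 member features lay above.

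**Figure D4:**
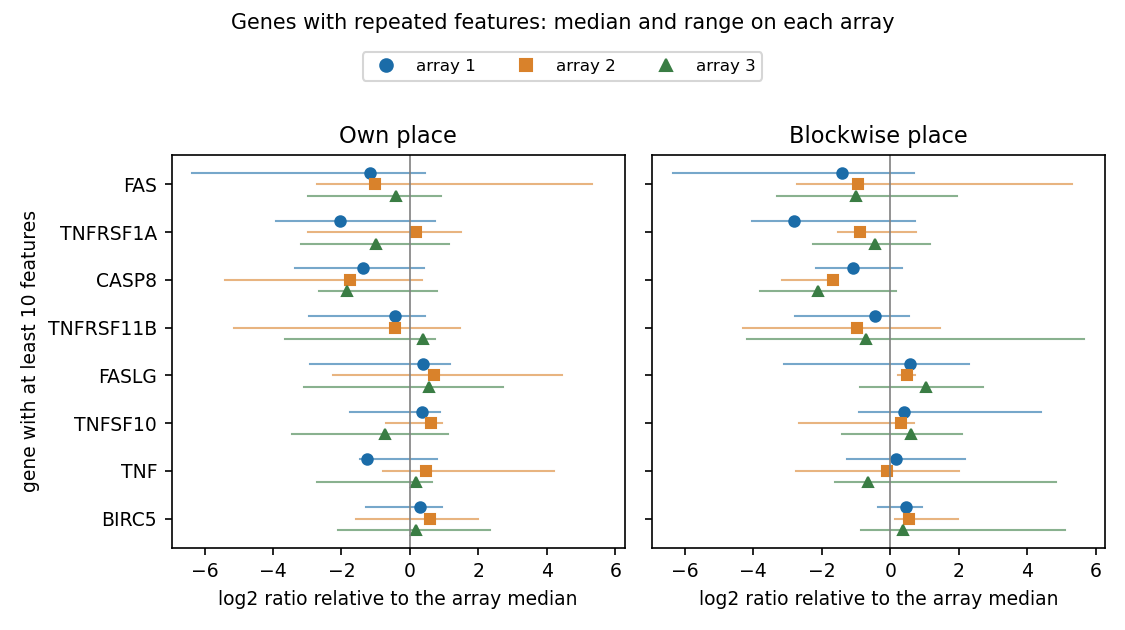
Median (symbol) and range (line) of the relative log2 ratio over the features of each gene with at least 10 features among the members and pathway genes, 1 line per array, at the own place (left) and by block (right). The medians of CASP8 lie left of 0 on all arrays in both panels and those of FASLG right of it. By block the medians of FAS lie between -1.40 and -0.94. The ranges of CASP8 and FASLG at the own place, and of FAS by block, cross 0 on all arrays.

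The other genes of the pathway were taken from 6 lists of 48 genes, of which 39 had a kept feature. By limma 0 of their 102 features were called, 54 had a mean below the array medians and 48 above, and the median of the means was -0.17, beside -0.38 over all features tested. At an unadjusted p under 0.05, 20 (19.6%) lay below and 1 (0.98%) above, near the 18.3% and 1.4% of all features. Among ligands, 10 features were below and 16 above. FASLG, the FAS ligand, had the smallest p there, with feature 1545 at 0.85, 0.72 and 1.82 (mean 1.13 ± 0.38, limma adjusted p = 0.250, n = 3 arrays). By block that feature had no value on array 1. The 11 features of FASLG had medians of 0.38, 0.72 and 0.57 on the 3 arrays at the own place and 0.57, 0.49 and 1.04 by block. All of these medians lay within 0.5 of the most repeated value of their array, in the peak described above.

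Caspase-8, encoded by CASP8, is the protease that FADD recruits, and the median over its repeated features was below the array median on every array. Its 12 features had medians of -1.37, -1.76 and -1.85 on arrays 1, 2 and 3, with 9 of 12, 8 of 9 and 8 of 10 values below the array median. By block the medians were -1.08, -1.68 and -2.10, and 10 of 12, 9 of 9 and 10 of 11 values were below. The SD among its features on array 2 was 1.53 at the own place and 0.50 by block. Feature 34261 was at -2.01, -2.22 and -2.66 (mean -2.30 ± 0.31, limma adjusted p = 0.0644, n = 3 arrays), short of the threshold. This list of receptor complex and initiator genes had 14 features below and 9 above, with 9 below at an unadjusted p under 0.05 (39.1%, beside 18.3% of all features). Of those 9, 7 were features of CASP8, so the count rests on that gene.

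Decoy and other receptors had 8 features below and 9 above. TNFRSF12A, the TWEAK receptor, had the smallest p, with feature 12485 at -3.11, -3.43 and -2.83 (mean -3.13 ± 0.30, limma adjusted p = 0.059, n = 3 arrays), low on all arrays. Among ubiquitin ligases and kinases, 5 were below and 4 above, and RBCK1, part of the linear ubiquitin chain assembly complex, had -5.58, -3.31 and -2.99 (mean -3.96 ± 0.68, limma adjusted p = 0.0923). Among other inhibitor-of-apoptosis proteins and their antagonists, 10 were below and 8 above, and HTRA2, a mitochondrial protease that antagonises XIAP, had -3.48, -2.72 and -5.27 (mean -3.83 ± 0.64, limma adjusted p = 0.0879). Among other inhibitors, 7 were below and 2 above, and PEA15, which binds FADD and caspase-8 through its death effector domain, had -5.56, -3.14 and -4.86 (mean -4.52 ± 0.61, limma adjusted p = 0.0654). By block the median of the means went from 0.075 to -0.88 for decoy and other receptors. That of ubiquitin ligases and kinases went from -0.21 to -1.33. For other inhibitor-of-apoptosis proteins and their antagonists it went from -0.135 to 0.37, and for other inhibitors from -1.48 to -0.21. Those features of RBCK1, HTRA2 and PEA15 had no value on array 3 by block, and that of TNFRSF12A none on array 1. Their other values by block lay between -5.58 and -2.70. BIRC5, or survivin, had medians of 0.29, 0.59 and 0.16 over its features, above the array median on each array. They lay below the most repeated value, at 0.58, 0.69 and 0.61, so their sign depends on where 0 is put. TNFSF10, which encodes TRAIL, had 0.34, 0.61 and -0.73, and TNF had -1.25, 0.47 and 0.18, with no common sign at the own place. By block the medians of TNFSF10 were 0.41, 0.32 and 0.60, above the array median on all 3 arrays but within 0.5 of the most repeated value. Those of TNF by block were 0.18, -0.10 and -0.66.

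The extent of the knockdown was not analysed here. The cell type could not be checked, since a log ratio holds no level; the 16 kept features of epithelial marker genes had a median of 0.44, with 12 above the array medians and 4 below, and the 45 of markers of other cells had 0.18. By block the sign of the first turned, to -0.79, and the second was 0.10. At the own place 58.5% of all features tested had a mean below the array medians. The epithelial count there rests largely on CDH1, with 10 features and medians of 0.67, 0.65 and 0.36 on the 3 arrays. These medians lay within 0.5 of the most repeated value of their array. Of the other epithelial markers, features of KRT5 (mean 0.97) and ITGB4 (1.72) lay above. Those of KRT14 (-2.58 and -1.57), LAMB3 (-4.66) and ITGA6 (-0.51) lay below.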

How the data were processed

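Gene expression in MCF10A cells was measured on 3 2-colour arrays, each holding obscurin shRNA RNA and control shRNA RNA. The deposited values are log2 ratios; their scanner, image analysis, normalization, centring and direction are not stated in the labels or the file. Base 2 was inferred from the values, not from a label (the ceiling of arrays 2 and 3 lies 16.61 above the most repeated value, a round power of 10 in base 2).

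From these, each array's median over all features with a value was subtracted. For 39399 features with at least 2 values, limma (version 3.58.1, lmFit and eBayes, under R 4.3.3) compared the mean with 0 in a two-sided test, with Benjamini-Hochberg adjustment over all of them at 0.05. The fit and the choice of place by block were run on simulated data with known answers. The simulated settings partly differed from these arrays, so this does not show how well either works on them. Tables were made with pandas 2.3.3 in Python 3.11.15. Features were named through the platform annotation. Channel intensities were not used here, so the depth behind a value is unknown and precision is limited by having 3 arrays. The rule for names was all members with each kept feature and, from each pathway list, up to 2 features past the threshold or otherwise the one with the smallest p; the repeated features of CASP8, FASLG, BIRC5, TNFSF10 and TNF were added after their values were seen. Choosing the annotation's place by block was also decided after the data were seen. The members and lists were chosen with earlier results of these data known. Alternatives changed the zero point, the scale, missing values, moderation, the place of the annotation and the arrays used. Promoters are from RefSeq tables of GRCh38.p14.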

Additional observations from a re-analysis of the deposited data

How the results depend on the processing

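No member feature was called at the settings of the report. Counts of called features moved in 3 settings. With features valued on all 3 arrays only, limma called 2602 lower and 11 higher (11.2% and 0.0472%). Among them were 3 of 15 member features, FAS 15171 and TNFRSF1A 25056 and 30189, and 8 of other pathway genes. Fewer features were tested there, and the number tested for other pathway genes is not given here. With 0 at the most repeated value limma called 3078 lower and 2 higher (7.81% and 0.00508%). Among the lower ones were 4 of 26 member features (the same 3 and TNFRSF1A 5814) and 11 of 102 features of other pathway genes. Without moderation 6 were called lower and 1 higher, with 0 member features. In the other settings the counts stayed at 0 lower and 0 higher, and at an unadjusted p under 0.05 there were 2826 lower and 13295 higher as deposited.

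Receptors and adaptors minus inhibitors was -0.014 by block, and there -0.21 with each gene counted once and -0.14 with medians. With an array left out it ran from -1.08 to -0.38, and other settings gave from -1.05 to -0.46.

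Signs of single features turned in 31 recomputations. They did not turn in 289 that stayed short of the threshold, nor in 7 that passed it. The cause of a change was not tested where it was not the zero point. As deposited, means became 0.24, 0.74, 0.71 and 1.02 for FAS 6185, 10681, 19585 and 19988, 0.35 and 0.077 for TNFRSF10B 4193 and 38651, 0.96 and 1.13 for TNFRSF1A 18427 and 29379, 1.43 for FADD 13866, 0.14 for CFLAR 3940 and 1.24 for XIAP. With 0 at the most repeated value they became -0.39 for FAS 1386, -0.057, -0.18 and -0.088 for TNFRSF1A 14732, 37785 and 42738, -0.18 for CFLAR 24156 and -0.40 for BIRC2. Centred on the features tested, FADD 13866 was 0.006. With all values 170 features earlier, FAS 10681, 17392 and 19585 were 1.15, -2.97 and 0.48, TNFRSF1A 42738 was -0.92 and CFLAR 24156 was -1.65. By block, FAS 19585 was 0.48, TNFRSF1A 42738 -0.80, CFLAR 24156 -1.65 and XIAP 0.51. With an array left out, FAS 1386 ranged from -0.10 to 0.61, FAS 21051 from -3.09 to 0.30, TNFRSF1A 29379 from -1.12 to 1.05 and XIAP from -0.53 to 0.46. No paired analysis was possible because there is 1 group of arrays, beyond the pairing already in each value, a ratio within an array that was tested against 0. With 3 arrays of this spread, a count of 0 does not show absence of change.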
